A study of Homo sapiens with 4 samples.

Results

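The miR-29 family is a group of human microRNAs (miRNAs, short RNAs that pair with messenger RNAs and lower their translation or stability) made up of miR-29a, miR-29b and miR-29c. Its 3 members were taken by exact name from the 1212 miRNAs on the array, and the passenger strands, written with a star, were kept apart. The family was selected on earlier log2 ratios of the same 4 samples, in which miR-29a and miR-29c stood out on the second array. All its values are therefore a description of these samples, and no test is given.

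HepG2 is a human liver cancer cell line that the labels call hepatocellular carcinoma, and 4 lines derived from it gave 1 RNA sample each. A pair of samples, in different dyes, was hybridised to each of 2 miRNA arrays. Array 1 held HepG2-vector in the dye Cy3 and HepG2-Twist1, transfected with pcDNA-Twist1, in Cy5. Array 2 held HepG2-Twist1/Bcl-2, which received both the pcDNA-Twist1 and the pcDNA-Bcl-2 plasmids, in Cy3 and HepG2-Bcl-2, which received pcDNA-Bcl-2, in Cy5. The construct field of HepG2-vector reads "none", although its title names a vector, and the sources used here do not say whether a line was a clone or a pool. The series describes the 3 transfected lines as stably expressing their constructs, and the comparisons ask how miRNAs differ with Twist1, with Bcl-2 and with both. Twist1 is a transcription factor that drives epithelial-mesenchymal transition, and Bcl-2 is a protein of the mitochondrial surface that blocks apoptosis.

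The miR-29 family is known for repressing collagens and other genes of the extracellular matrix, the DNA methyltransferases DNMT3A and DNMT3B, and MCL1, a survival protein related to Bcl-2. In the liver, its loss in stellate cells accompanies fibrosis, and in tumours of the liver low levels have been reported. Its members are made from hairpin precursors that lie in pairs on separate chromosomes.

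The mature sequences are shown because the members share a seed, the stretch at bases 2 to 8 that guides pairing with a target, and differ in only a few bases after it. The sequences and coordinates are those of RefSeq on GRCh38.p14, and each of them equals the target sequence given for its array probe. The seed is in capitals.
miR-29a: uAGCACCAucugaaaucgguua
miR-29b: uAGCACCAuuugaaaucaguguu
miR-29c: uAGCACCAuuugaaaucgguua
The 3 seeds were identical, and no other miRNA on the array had that seed. Counted from 1 at the 5′ end, miR-29c differed from miR-29a by the single substitution C10U over 22 bases. miR-29b differed from miR-29a by C10U, G18A, U21G and A22U, and from miR-29c by G18A, U21G and A22U. The next nearest target on the array differed from miR-29b at 8 positions and from the other members at 9. How far the probe of one member also bound the RNA of another was not tested, and the bright miR-29a differs from miR-29c at 1 base.

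All 4 hairpins of the family are on the minus strand. MIR29A (chromosome 7, 130876747 to 130876810) and MIR29B1 (chromosome 7, 130877459 to 130877539) are 648 bases apart. MIR29C (chromosome 1, 207801852 to 207801939) and MIR29B2 (chromosome 1, 207802443 to 207802523) are 503 bases apart and lie within the long non-coding RNA gene MIR29B2CHG (chromosome 1, 207801518 to 207822703). The mature miR-29b is the same from both of its hairpins, so the array value of miR-29b sums what comes from both chromosomes. In the promoter table of RefSeq, the 300 bases around the start of MIR29B2CHG held 4 matches to CANNTG, the E-box letters that Twist1 and other basic helix-loop-helix factors bind, where 2 of the 4 overlap each other. At least 1 match was in 68.7% of the 35116 promoters of that length and 4 or more were in 5.58%. A match is a description of letters and not a binding site.

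Scanner intensities of the miR-29a spots were far above background in every line. Each miRNA had 3 repeat spots, and their spread is technical. On array 1 the miR-29a spots read 6010, 5933 and 5925 in HepG2-vector and 2990, 3203 and 2855 in HepG2-Twist1. On array 2 they read 2291, 2622 and 2474 in HepG2-Twist1/Bcl-2 against 10250, 10848 and 8031 in HepG2-Bcl-2. The Cy5 channel was the dimmer one for the background on both arrays: the median of the 20 empty spots was 38.0 in HepG2-Twist1 against 105 in HepG2-vector, and 51.7 in HepG2-Bcl-2 against 159 in HepG2-Twist1/Bcl-2. The highest miR-29a reading of the 4 lines was that of HepG2-Bcl-2, in Cy5. Empty spots do not show how the dyes compare at bright spots, and a dye effect on miR-29a was not tested.

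miR-29c was dim and miR-29b was close to background. The miR-29c spots read 320, 286 and 265 in HepG2-vector and 99.1, 73.2 and 89.5 in HepG2-Twist1. On the other array they read 184, 121 and 171 in HepG2-Twist1/Bcl-2 against 382, 213 and 391 in HepG2-Bcl-2. Against the median of the neighbouring spots within 3 rows and 3 columns, miR-29c stood 2.15 to 2.41 times above it in HepG2-vector and 1.65 to 2.19 times in HepG2-Twist1. On array 2 the same ratio was 1.06 to 1.49 in HepG2-Twist1/Bcl-2 but 4.93 to 8.94 in HepG2-Bcl-2. So miR-29c was barely above its surroundings in HepG2-Twist1/Bcl-2 and clearly above them in HepG2-Bcl-2. The miR-29b spots read 151.3, 158.2 and 125.7 in HepG2-vector and 52.1, 41.2 and 38.3 in HepG2-Twist1. On array 2 they read 113.8, 153.2 and 150.8 in HepG2-Twist1/Bcl-2 against 62.9, 85.1 and 75.2 in HepG2-Bcl-2. Their ratio to the neighbouring spots ranged from 0.97 to 1.27 in the first 3 of these lines and from 1.48 to 1.87 in HepG2-Bcl-2. The background was higher in Cy3 than in Cy5, so this ratio cannot be compared between lines in different dyes. As a difference from the neighbours, the miR-29b spots stood 11.4 to 33.6 above them in HepG2-vector and 20.3 to 39.6 in HepG2-Bcl-2. The same difference for miR-29c was 7.19 to 60.6 in HepG2-Twist1/Bcl-2 and 170 to 347 in HepG2-Bcl-2. The ratio of miR-29a spots to their neighbours ranged from 16.5 to 246.

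**Figure D1:**
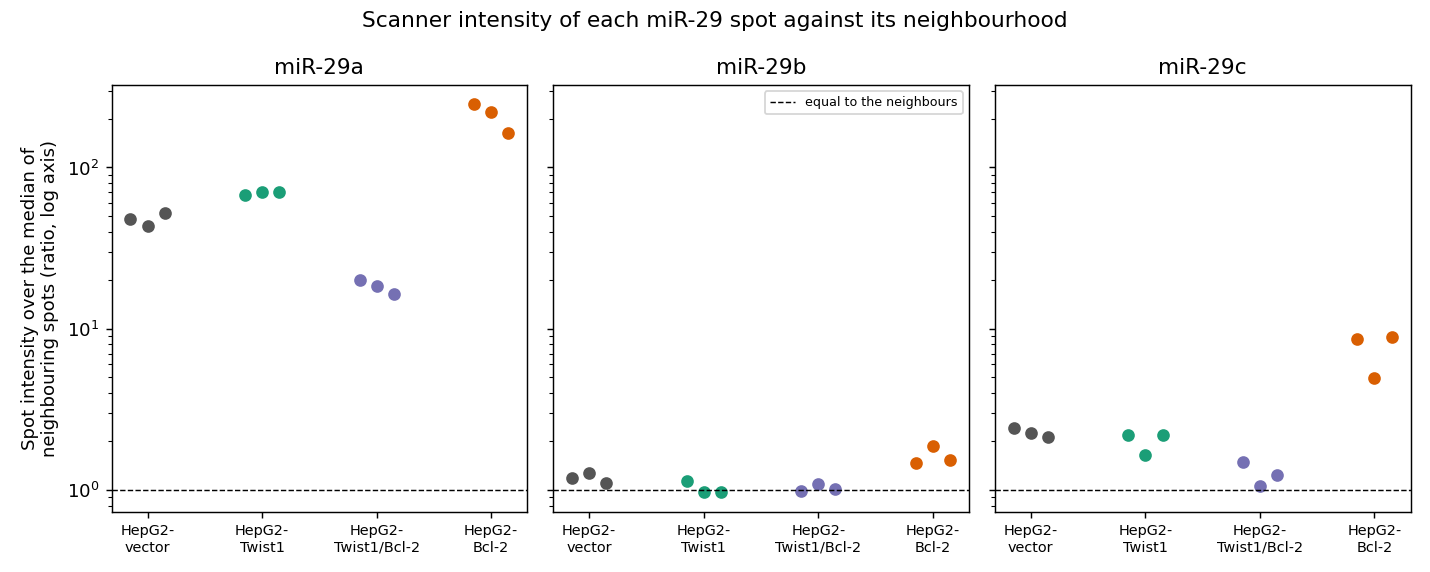
Scanner intensity of each miR-29 spot divided by the median of the neighbouring spots (ratio, log axis) in the 4 lines, with 1 point for each of the 3 repeat spots. miR-29a lies at 16.5 or more everywhere, miR-29c lies between 1.06 and 1.49 in HepG2-Twist1/Bcl-2 but at 4.93 or more in HepG2-Bcl-2, and miR-29b exceeds 1.27 only in HepG2-Bcl-2. The background is higher in Cy3 than in Cy5, so the ratio cannot be compared between lines in different dyes.

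After background correction and loess within each array, the members are given as a normalized intensity, the mean of the repeat spots on the log scale in arbitrary units. A miRNA counted as measured in a comparison where at least 1 of its samples reached 32. A difference of at least 2-fold (a log2 ratio at or beyond 1 or -1) was called where all 3 spots had the same sign, or, across arrays, where the spots of the 2 samples did not overlap. Ratios are taken with an offset of 50 added to each intensity, which understates those of dim miRNAs.

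In lines without Bcl-2, the family hardly differed with Twist1 after loess. The normalized spots of miR-29a lay at 4137, 4087 and 4072 in HepG2-vector and at 4249, 4548 and 4060 in HepG2-Twist1. The samples overlapped, and the log2 ratio of HepG2-Twist1 over HepG2-vector was 0.06 ± 0.08 (SD of 3 spots). The miR-29c spots lay at 144, 125 and 111 in HepG2-vector and at 126, 84.4 and 109 in HepG2-Twist1, and its log2 ratio was -0.18 ± 0.19. Each miR-29c spot read lower with Twist1, by a difference smaller than the spread between spots. For miR-29b the spots were 42.3, 48.9 and 28.6 against 44.0, 28.3 and 20.3, a log2 ratio of -0.16 ± 0.18. No member was called in this comparison, where 1.64% of the 304 measured miRNAs were called lower and 0% higher. The median log2 ratio of the measured miRNAs was -0.02, and that of the 3 members was -0.16. With centring in place of loess, the ratios were -0.31 for miR-29a, -0.25 for miR-29b and -0.65 for miR-29c. Without normalization they were -0.97, -0.91 and -1.32. The median of all measured miRNAs was then -0.27 with centring and -0.63 without normalization.

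In lines with Bcl-2, miR-29a and miR-29c were much lower with Twist1. The normalized spots of miR-29a lay at 1723, 1996 and 1858 in HepG2-Twist1/Bcl-2, far from the 12932, 13613 and 10175 of HepG2-Bcl-2. The log2 ratio was -2.68 ± 0.23 (SD of 3 spots), a 6.40-fold difference between intensities of 1856 and 12145. The 3 spots gave ratios of -2.87, -2.74 and -2.42, so each repeat spot showed the difference. Over all 592 measured miRNAs, the ratio of miR-29a ranked 5 from the lowest. Lower ratios were those of miR-146a (-7.65), miR-424 (-3.82), miR-200b (-3.65) and miR-146b-5p (-2.92), which did not reach 100 in each sample. In the set of 137 miRNAs whose intensity reached 100 in each sample of array 2, miR-29a had the lowest ratio, and 13 of the 137 (9.49%) were called lower. The family was selected on this ratio, so these ranks only describe it.

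The miR-29c spots lay at 44.7, 1.87 and 35.5 in HepG2-Twist1/Bcl-2 against 519, 267 and 530 in HepG2-Bcl-2. The log2 ratio was -2.65 ± 0.10 with the offset of 50. The mean intensity of 24.9 in HepG2-Twist1/Bcl-2 was below the minimum of 32 and within or below the range of the empty spots there (31.9 to 45.7), so the size of the ratio depends on the offset (it was -3.34 with an offset of 16) and only a bound can be set on the fold. Taken against the brightest empty spot, the intensity of 421 in HepG2-Bcl-2 was at least 9.21-fold higher. The spots of miR-29b were 6.46, 28.0 and 27.2 against 40.0, 84.4 and 69.6, a log2 ratio of -0.70 ± 0.08. All 3 normalized miR-29b spots were lower with Twist1, but the ratio did not reach 2-fold and the member was not called. This ratio depended on the processing. It was -1.15 with an offset of 16, -0.03 with the median empty spot subtracted and -0.01 without normalization. Of the 3 members, 2 were called lower and 0 higher, where 4.90% of the 592 measured miRNAs were called lower and 3.55% higher. The median log2 ratio was -2.65 over the members and -0.04 over all measured miRNAs. The minimum of 32 lay within the range of the empty spots of HepG2-Bcl-2 too (21.2 to 43.2), so miRNAs at background level can count among the 592. At a minimum of 100, 15.3% of 183 miRNAs were called lower and 11.5% higher, and miR-29b was not measured.

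**Figure D2:**
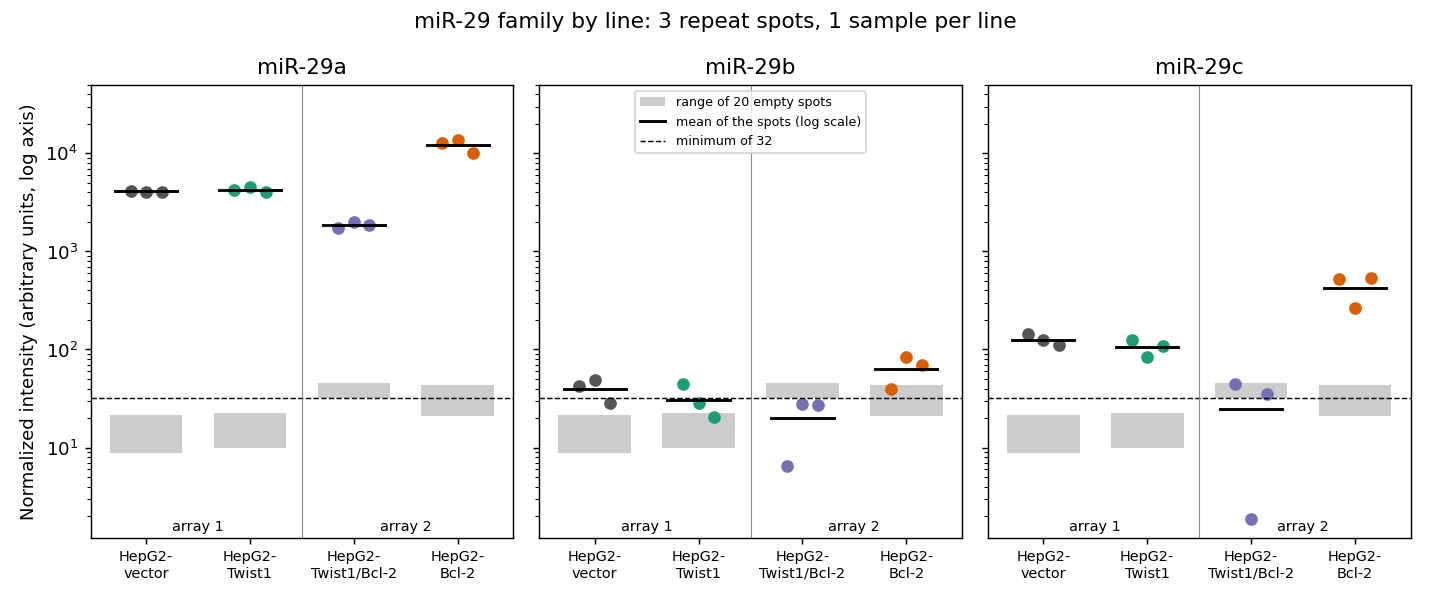
Normalized intensity (arbitrary units, log axis) of miR-29a, miR-29b and miR-29c in the 4 lines; each array was normalized by itself, points are the 3 repeat spots, bars their mean on the log scale, grey bands the range of the 20 empty spots and the dashed line the minimum of 32. miR-29a is at 4099 and 4281 on array 1 and at 1856 and 12145 on array 2, and miR-29c is at the level of the empty spots in HepG2-Twist1/Bcl-2.

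The Twist1 ratio on array 2 minus that on array 1 was -2.74 on the log2 scale for miR-29a, -2.47 for miR-29c and -0.54 for miR-29b. The Twist1 line carried Cy5 on array 1 and Cy3 on array 2, so a dye effect that a probe showed alike on both arrays cancels in the mean of the ratios. This mean was -1.31 ± 0.12 for miR-29a, -1.42 ± 0.11 for miR-29c and -0.43 ± 0.10 for miR-29b (SD from the spots of both arrays). Under other ways of processing it ran from -1.48 to -1.25 for miR-29a and from -2.15 to -1.29 for miR-29c. For miR-29b it ran from -0.73 to -0.01. The SD does not cover these ranges. Each mean includes the array 2 ratio, on which the family was selected. The same dye effect does not cancel in the gap between the arrays, and both Bcl-2 samples were on array 2, so Bcl-2, the array and the dye cannot be told apart in that gap.

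**Figure D3:**
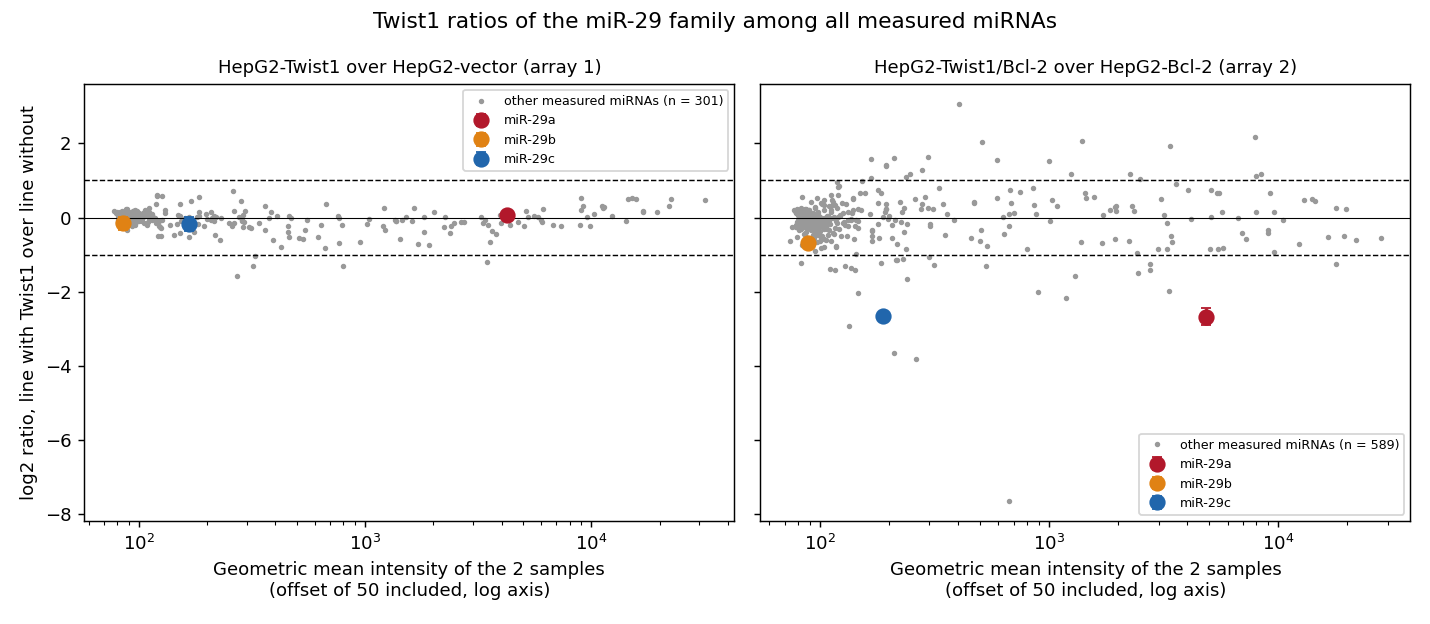
Log2 ratio with over without Twist1 on the vertical axis, against the geometric mean intensity of both samples (offset of 50 included, log axis), on array 1 (left) and array 2 (right). Grey points are the other measured miRNAs, coloured points the members with the SD of 3 spots, and dashed lines mark 2-fold; on array 2, miR-29a at -2.68 and miR-29c at -2.65 lie apart from most other miRNAs, and on array 1 all 3 members lie within 0.18 of 0.

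The order of the lines is given across both arrays, after quantile normalization between them. For miR-29a the level was 11972 in HepG2-Bcl-2, 4252 in HepG2-Twist1, 4071 in HepG2-vector and 1829 in HepG2-Twist1/Bcl-2. The spots of HepG2-Twist1 and HepG2-vector overlapped, and those of the other neighbours in the order did not. For miR-29c the order was HepG2-Bcl-2 at 369, HepG2-vector at 148, HepG2-Twist1 at 125 and HepG2-Twist1/Bcl-2 at 16.6, again with overlap only between HepG2-vector and HepG2-Twist1. For miR-29b the levels were 55.7 in HepG2-Bcl-2, 48.0 in HepG2-vector, 37.9 in HepG2-Twist1 and 15.2 in HepG2-Twist1/Bcl-2, and only the last of these was apart from its neighbour. By these means HepG2-Bcl-2 was the highest and HepG2-Twist1/Bcl-2 the lowest line for each member, but miR-29b was near background throughout, and without normalization its log2 ratios turned to -0.38 for HepG2-Bcl-2 over HepG2-vector and to 0.52 for HepG2-Twist1/Bcl-2 over HepG2-Twist1.

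With Bcl-2 alone, miR-29a and miR-29c were higher than in HepG2-vector. The log2 ratio of HepG2-Bcl-2 over HepG2-vector was 1.54 ± 0.23 for miR-29a, a 2.92-fold difference, and 1.08 ± 0.52 for miR-29c, a 2.12-fold difference (SD combined from the spots of both samples). That of miR-29b was 0.11 ± 0.31. Of the 3 members, 2 were called higher, where 2.89% of the 484 measured miRNAs were called higher and 2.69% lower. At a minimum of 100 these shares were 8.19% and 7.6% of 171. The call of miR-29c was lost without the third repeat spot, where its log2 ratio was 0.87, and neither member was called without normalization.

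When Bcl-2 was added to Twist1, miR-29a and miR-29c were lower. The log2 ratio of HepG2-Twist1/Bcl-2 over HepG2-Twist1 was -1.20 ± 0.16 for miR-29a, a 2.29-fold difference. It was -1.39 ± 0.51 for miR-29c, where the bound against the brightest empty spot was an intensity at least 3.24-fold higher in HepG2-Twist1. For miR-29b it was -0.43 ± 0.32. Of the 3 members, 2 were called lower, where 6.39% of the 454 measured miRNAs were called lower and 6.39% higher. At a minimum of 100 these shares were 16.6% and 15.4% of 169. Without normalization the log2 ratios were -0.33 for miR-29a and 0.01 for miR-29c, and neither was called. Each Bcl-2 comparison sets one array and dye against the other, which cannot be told apart from Bcl-2 here, and all 4 comparisons draw on the same 4 samples.

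**Figure D4:**
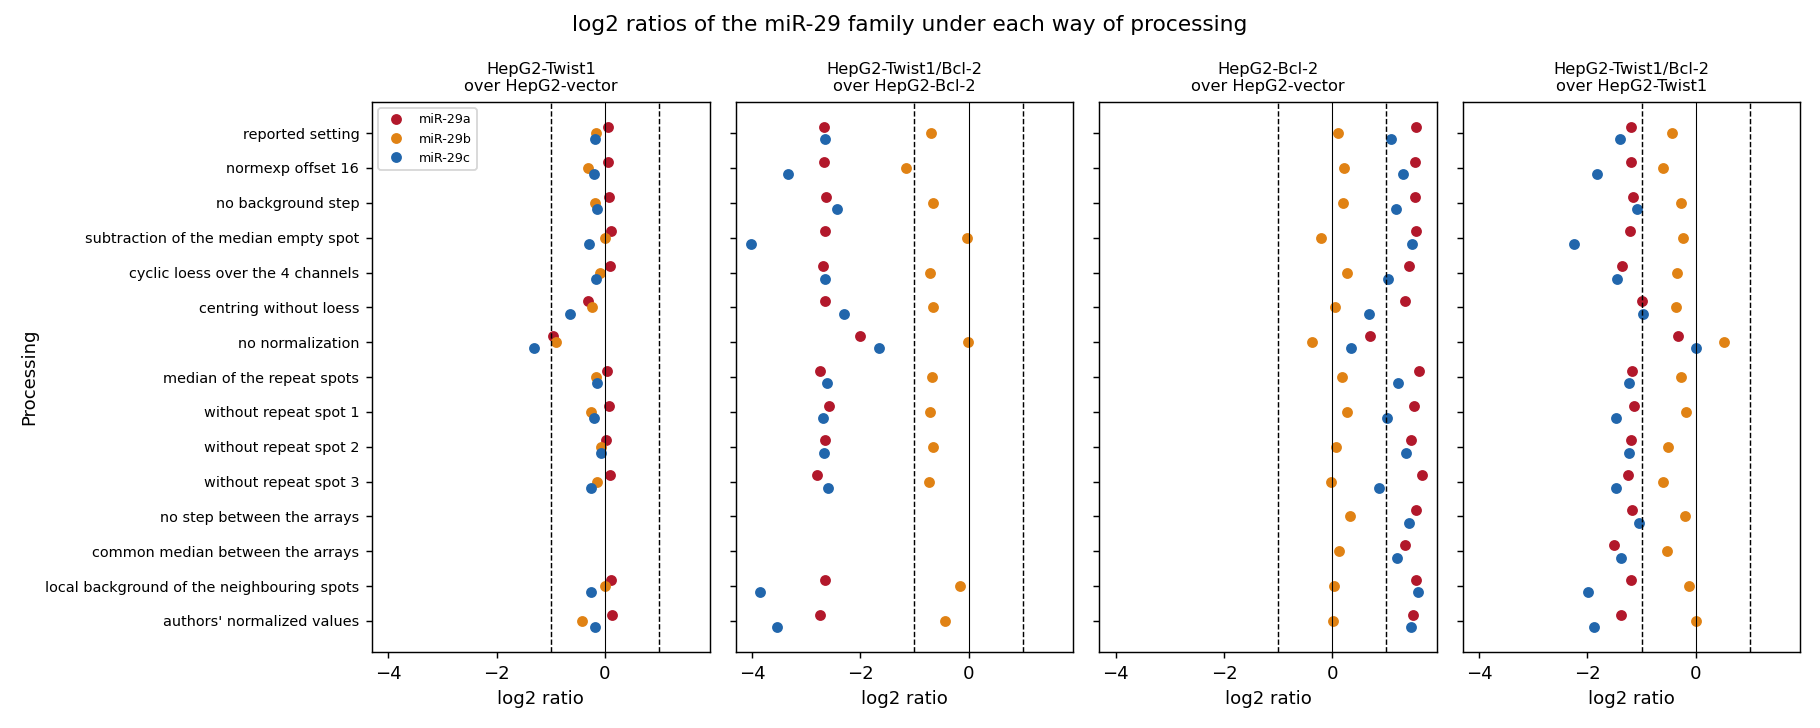
Log2 ratios of the members (horizontal axis) in the 4 comparisons under each way of processing (vertical axis); dashed lines mark 2-fold. For HepG2-Twist1/Bcl-2 over HepG2-Bcl-2, every point of miR-29a and miR-29c lies below -1, with miR-29c between -4.02 and -1.65, while without normalization miR-29c is at 0.01 for HepG2-Twist1/Bcl-2 over HepG2-Twist1.

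The passenger strands come from the other arm of each hairpin and are usually degraded. The sequences of those that reached the minimum are shown with bases 2 to 8 in capitals, since they separate the hairpins that give the same mature miR-29b.
miR-29b-1*: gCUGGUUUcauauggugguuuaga
miR-29b-2*: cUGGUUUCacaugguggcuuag
miR-29b-1* comes from chromosome 7 and had intensities of 68.1 in HepG2-Bcl-2, 33.7 in HepG2-Twist1/Bcl-2, 26.6 in HepG2-vector and 29.7 in HepG2-Twist1. Its log2 ratio was -0.50 ± 0.08 on array 2, where the 33.7 lay within the range of the empty spots (31.9 to 45.7). miR-29b-2* comes from chromosome 1 and had 105.7, 59.9, 25.8 and 32.9 in the same order, with a log2 ratio of -0.50 ± 0.77 on array 2. The spots of miR-29b-2* disagreed more than they differed between the lines. These intensities were normalized within each array only, so they cannot be compared between arrays. By them, miR-29a* and miR-29c* stayed below 32 in all 4 lines, but miR-29c* counted as measured across arrays. No passenger strand was called in any of the 4 comparisons. The order below is Twist1 without and with Bcl-2, then Bcl-2 without and with Twist1. Of the 4 strands, 1, 2, 3 and 3 were measured. Over all measured miRNAs, 1.64%, 4.90%, 2.69% and 6.39% were called lower and 0%, 3.55%, 2.89% and 6.39% higher. At such shares, 0 calls among so few strands says little.

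The miRNAs nearest in pattern were found by the Euclidean distance between centred log2 levels over the 4 lines, among miRNAs at 100 or more in all lines besides the members. For miR-29c the nearest of 124 was miR-29a, at 0.37, where the median distance was 1.97. The nearest of 123 to miR-29a were miR-20b at 0.95, miR-20a at 0.99 and miR-21 at 1.06. miR-20a and miR-20b belong to the miR-17 seed family, and miR-21 is an abundant miRNA of many tumours. The level of miR-29c in HepG2-Twist1/Bcl-2 was not above the empty spots, so its distances depend on the offset, and both members had been selected on their array 2 ratios. The distance of miR-29b from miR-29a was 1.45 and from miR-29c 1.38. Its nearest miRNAs were miR-27b at 0.13, miR-24 at 0.15 and miR-30e* at 0.18, where the median distance was 0.80. With 4 points a distance only describes these samples.

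Of the other miRNAs near the hairpins on chromosome 7, those described here did not share the low ratio of array 2. miR-335, made within an imprinted gene 380621 bases from MIR29A, had intensities of 113 in HepG2-Bcl-2, 320 in HepG2-Twist1/Bcl-2, 96.0 in HepG2-vector and 77.6 in HepG2-Twist1. Its log2 ratio on array 2 was 1.18 ± 0.05, called higher. miR-182 and miR-183, of a cluster known from sensory organs that lies 1106300 and 1101780 bases away, had log2 ratios of 0.49 ± 0.13 and 0.32 ± 0.06 there. On the chromosome 1 side, miR-205 and miR-4260 were between 19.1 and 38.0 in all lines, within or below the range of the empty spots on array 2, so no lower ratio could be seen there.

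Other miRNAs known to act on the same targets were set beside the family from lists that were drawn up with earlier results known. Of the 7 that repress DNA methyltransferases, all were measured on array 2 with a median log2 ratio of -0.35, and 2 were called lower, beside a median of -0.04 and 4.90% called lower and 3.55% called higher over all 592 measured miRNAs. At a minimum of 100, 15.3% of 183 miRNAs were called lower. The 2 called lower in this list were miR-148b, which represses DNMT1, at -1.14 ± 0.34, and miR-126, an endothelial miRNA, at -1.11 ± 0.08. Of the 10 that repress BCL2 or MCL1, 9 were measured with a median of -0.49, 0 were called lower and miR-193b, a repressor of MCL1, was called higher at 1.39 ± 0.05. miR-16 and miR-195, which repress BCL2, were at -0.86 ± 0.10 and -0.84 ± 0.04 and were not called. Of the 10 that restrain matrix genes or fibrosis, 8 were measured with a median of -0.75. Of these, miR-200b, a keeper of the epithelial state, was called lower at -3.65 ± 0.01, and miR-19b, of the miR-17/92 cluster, at -1.13 ± 0.15. miR-126, miR-143, miR-133a and miR-133b of these lists are also markers of other cells. On array 1 the medians of these lists were -0.05, -0.21 and 0.12, and miR-19b was the single miRNA called, at -1.32, where 1.64% of all 304 measured miRNAs were called lower.

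Markers of cell type were read in the same samples. miR-122, the most abundant miRNA of hepatocytes, was between 17.2 and 30.3 in all 4 lines, below the minimum, and so was miR-885-5p. The liver label was thus not borne out by these 2 of the 5 liver markers read. The others reached the minimum in all 4 lines. miR-192 was between 152 and 443, miR-194 between 108 and 151 and miR-148a between 32.1 and 59.2, its lowest value lying within the range of the empty spots. Called lower in HepG2-Twist1/Bcl-2, miR-192 was at -1.29 ± 0.47 against HepG2-Bcl-2 and -1.38 ± 0.40 against HepG2-Twist1. Of all measured miRNAs, 4.90% and 6.39% were called lower there, and miR-194 and miR-148a were not called. Of 14 markers of blood, endothelial, muscle and stromal cells, 8 reached 32 in HepG2-Bcl-2, 2 in HepG2-Twist1/Bcl-2 and 1 each in HepG2-vector and HepG2-Twist1. Over all miRNAs on the array, 532 reached 32 in HepG2-Bcl-2, 482 in HepG2-Twist1/Bcl-2, 282 in HepG2-vector and 286 in HepG2-Twist1. Reaching 32 was thus more common on array 2 for miRNAs in general. The summed intensity of the 14 markers was 767, 431, 385 and 384 in the same order of lines. Within array 2 the sum was higher in HepG2-Bcl-2, as were miR-29a and miR-29c, and a link between them was not tested. These intensities were normalized within each array only, so the marker counts and sums cannot be compared between arrays. The defining blood markers miR-451, miR-144 and miR-142-3p were below 32 in every line, the blood marker miR-223 was at 41.1 in HepG2-Bcl-2 and below 32 elsewhere, and miR-126 was the marker above 100. The empty spots reached 43.2 in HepG2-Bcl-2, and of the 8 markers only miR-126, miR-133a, miR-133b and miR-145 exceeded that. The part of other cells in the values of HepG2-Bcl-2 was not tested, and in these bulk samples a change in the cells present and a change of RNA per cell cannot be told apart.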

How the data were processed

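Total RNA of 4 HepG2 lines, 1 sample each, was labelled and hybridised by a service provider (LC Sciences). The authors deposited for each array a scanner table with the median pixel intensity of each spot in each channel, without a background column, and 1 table that gives each of the 1212 miRNAs a normalized intensity in every sample. According to the methods these were background-subtracted, filtered and normalized by cyclic LOWESS. The deposited normalized intensity values are on a linear scale, with medians of 12.1 in HepG2-Bcl-2, 12.5 in HepG2-Twist1/Bcl-2, 12.6 in HepG2-Twist1 and 12.7 in HepG2-vector. Their correlation with the scanner values across 124 bright miRNAs was between 0.9976 and 0.9996 on the log2 scale, and they served as an alternative. The table of authors' values held no repeat spots, so a call on it needed the fold only, and its values under 32 were raised to 32.

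Spots of the scanner tables were corrected with limma's normexp model per channel (offset 50), then normalized by loess within each array (span 0.3, 4 iterations, the 332 control spots at weight 0). Quantile normalization of average log intensity followed for comparisons across arrays. The minimum of 32 is that of the methods, and the methods' test was not run because each line had 1 sample. The number of arrays limits the precision. The script that makes the calls was run on simulated data, and only calls of bright miRNAs within each array were scored. Calls across arrays and calls of dim miRNAs were not tested in this way. The simulation checks the script and is no test of a difference between lines. Bounds used the higher of 32 and the brightest empty spot of the dim sample. All members were named, and related lists and the nearest 3 miRNAs by pattern were named by rule. Members and lists were chosen with earlier results of these data known. Alternatives covered the background, the normalization, the step between arrays, the repeat spots, the minimum and the authors' values. limma 3.58.1 ran in R 4.3.3, and Python 3.11.15 was used for summaries.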

Additional observations from a re-analysis of the deposited data

Results flagged for a closer look

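The ratio with Bcl-2 ran in opposite directions without and with Twist1 for miR-29a and miR-29c, with no overlap between the spots of the samples. For miR-29a the log2 ratio was 1.54 for HepG2-Bcl-2 over HepG2-vector and -1.20 for HepG2-Twist1/Bcl-2 over HepG2-Twist1. For miR-29c the same ratios were 1.08 and -1.39. Whether the ratios differ was not tested, since each line had 1 sample, and both ratios set array 2 over array 1, with the dyes swapped between them.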

How the results depend on the processing

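Across the alternatives, miR-29a and miR-29c were called lower in HepG2-Twist1/Bcl-2 than in HepG2-Bcl-2 in 13 of 13, and miR-29b in 1 of 13 (an offset of 16). HepG2-Bcl-2 over HepG2-vector gave calls for miR-29a in 14 of 15 and for miR-29c in 12 of 15. HepG2-Twist1/Bcl-2 over HepG2-Twist1 gave them in 14 of 15 and 13 of 15. The median of the members for HepG2-Twist1/Bcl-2 over HepG2-Bcl-2 was -2.43 with no background step, -2.31 with centring in place of loess and -1.65 without normalization. For HepG2-Bcl-2 over HepG2-vector it was 1.48 with the median empty spot subtracted, 0.67 with centring, 0.35 without normalization, 1.42 with no step between the arrays, 1.56 with a local background (chosen after seeing the data) and 1.46 with the authors' values. The members called higher there were 1 with centring, 0 without normalization and 1 without repeat spot 3. For HepG2-Twist1/Bcl-2 over HepG2-Twist1 the members called lower were 1 with centring and 0 without normalization, where the median of the members, which is also the value of miR-29c, was 0.014 and thus reversed. Without normalization, HepG2-Twist1 over HepG2-vector had a median of -0.97 with 1 member called lower, miR-29c. The mean Twist1 ratio over both arrays had a median of -1.48 with centring and -1.48 without normalization. Leaving out normalization moved the median of all measured miRNAs to -0.63, 0.59, -0.51 and 0.78 in the order of the comparisons, and 131 miRNAs were then called lower for HepG2-Twist1 over HepG2-vector in place of 5. With the authors' values, 12.9% of the measured miRNAs were called lower for HepG2-Twist1/Bcl-2 over HepG2-Bcl-2, and 10.2% with the local background, in place of 4.90%. No paired analysis was possible because each line had 1 sample with no replicate number; the samples that shared an array were compared by their ratio within it. The dim signal of miR-29b, and of miR-29c in HepG2-Twist1/Bcl-2, limits their ratios.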
